A study of Mus musculus with 9 samples.

Results

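Transcripts of 10 secreted factors of the stressed heart were followed in 9 mouse heart libraries: Gdf15, Fgf21, Fgf23, Fstl1, Fstl3, Mstn, Metrnl, Areg, Ereg and Hbegf. They were taken by gene symbol, and each matched 1 of the 54532 gene identifiers of the count table. The libraries came from wild-type (WT) male C57BL/6J mice aged 8 to 10 weeks, 3 each from the sham, MIRI and GXNI groups. MIRI is myocardial ischemia/reperfusion injury, here 30 min of ligation of the left anterior descending coronary artery and 24 h of reperfusion with saline given through the tail vein. GXNI mice had the same operation and were given Guanxinning injection, a preparation of 2 medicinal plants, at 9 mL/kg by the same route. In sham mice the chest was opened and the artery was left unligated. The paper states that all groups had a tail vein injection of a drug or saline. MIRI and GXNI hearts together are called I/R hearts below. The labels give heart as the tissue and Cardiomyocytes as the cell type, and the RNA was extracted from heart tissue.

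Cardiokines are proteins that heart cells release into the myocardium or the blood, many of them when the tissue is injured. Gdf15 and Fgf21 are hormones of the cellular stress response that act on the brain, liver and fat, and Fgf23 is a phosphate-regulating hormone made mainly by bone. Fstl3 and Fstl1 are follistatin-related glycoproteins, of which Fstl3 binds and neutralizes activins and myostatin (Mstn). Metrnl is a meteorin-like cytokine, and Areg, Ereg and Hbegf are membrane-anchored ligands of the EGF receptor family that proteases release.

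The promoters of Gdf15, Fstl3, Areg and Fgf23 are shown because their counts were highest in the same 3 I/R hearts (MIRI 1, MIRI 3 and GXNI 3) and low or absent in sham. The sequences are from RefSeq (GRCm38.p6) and end at the base before the start site, each 250 bases long and read 5′ to 3′ on the strand of its gene. Capitals mark the motifs searched for on both strands, which were the AP-1 site (TGANTCA), the cAMP response element (TGACGTCA), a C/EBP-ATF element (TGATGNAA) and the core of the hypoxia response element (ACGTG), and the TATA box (TATAAA), which was searched for on the strand of the gene only. Gdf15 has 2 start sites in the table and the downstream one is shown. Its window lies inside the annotated gene, which spans 70629393 to 70632456. The window before the annotated start of the gene, the upstream one, is not shown and held none of the motifs. 
Gdf15: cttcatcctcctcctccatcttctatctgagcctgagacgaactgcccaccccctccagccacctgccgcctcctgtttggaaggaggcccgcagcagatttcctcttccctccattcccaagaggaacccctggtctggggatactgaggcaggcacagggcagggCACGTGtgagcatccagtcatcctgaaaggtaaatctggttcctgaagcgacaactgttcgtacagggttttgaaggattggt
Fstl3: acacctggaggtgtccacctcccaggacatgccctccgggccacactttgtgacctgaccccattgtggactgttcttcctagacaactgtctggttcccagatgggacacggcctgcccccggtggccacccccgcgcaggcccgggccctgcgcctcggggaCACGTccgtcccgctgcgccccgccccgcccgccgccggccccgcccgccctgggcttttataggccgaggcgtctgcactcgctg
Areg: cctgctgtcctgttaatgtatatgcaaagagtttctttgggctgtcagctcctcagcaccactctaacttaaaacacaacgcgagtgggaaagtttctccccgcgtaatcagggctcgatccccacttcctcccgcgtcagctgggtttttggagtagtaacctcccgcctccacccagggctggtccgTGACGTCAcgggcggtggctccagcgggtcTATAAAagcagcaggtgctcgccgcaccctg
Fgf23: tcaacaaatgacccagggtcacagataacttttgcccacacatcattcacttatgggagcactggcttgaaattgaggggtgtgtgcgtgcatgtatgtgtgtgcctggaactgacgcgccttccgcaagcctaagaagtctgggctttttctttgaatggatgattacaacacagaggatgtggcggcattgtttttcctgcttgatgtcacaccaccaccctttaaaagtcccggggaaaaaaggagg

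These windows lie at chr8:70632096-70632345 on the reverse strand (Gdf15), and on the forward strand at chr10:79777024-79777273 (Fstl3), chr5:91139349-91139598 (Areg) and chr6:127072652-127072901 (Fgf23). The hypoxia core was found 83 bases before the downstream start of Gdf15, as the palindrome that reads the same on both strands, and 86 bases before the start of Fstl3. It was in 16.6% of the 32851 promoters of the table. The Areg window held a cAMP response element 61 bases before the start, a motif in 1.55% of all promoters, and a TATA box 31 bases before it, in 7.59%. The Fgf23 window and the upstream Gdf15 window held none of the 5 motifs. Of the members not shown, Fgf21 held a C/EBP-ATF element at 139 bases (3.45% of all promoters), the hypoxia core at 50 bases and a TATA box at 28 bases. Mstn held an AP-1 site at 170 bases (6.75%) and a TATA box at 29 bases, and Metrnl and Fstl1 held none. Promoters of 8 members were in the table, all but Ereg and Hbegf. Ereg and Areg are neighbours on the forward strand of chromosome 5 with 45952 bases between them, Ereg from 91074622 to 91093646 and Areg from 91139599 to 91148432. A match describes these letters only.

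The libraries held 17119454 to 22811295 counts, so that 3 counts correspond to 0.132 to 0.175 CPM (counts scaled to each library's TMM-adjusted total). Across 15207 genes each sham library was nearest to another sham library, and none of the 6 I/R libraries was nearest to one of its own group. MIRI 1 and MIRI 3 were nearest to GXNI 3 (Spearman's rho = 0.986 and 0.987), GXNI 3 to MIRI 3, GXNI 2 to MIRI 1 (0.980), MIRI 2 to GXNI 1 (0.982) and GXNI 1 to sham 1 (0.984). The fold changes that the study tabulated appeared to fit a grouping in which the labels of MIRI 2 and GXNI 3 are exchanged. That was seen in a comparison made aside from these results, and an exchange was not tested here. The deposited labels were kept as the main grouping, and the calls and fold changes of the members are also given without these 2 libraries and with their labels exchanged. The comparison of all 6 I/R hearts with sham does not depend on which I/R heart carries which label. Calls required a 1.5-fold difference or more and p no higher than 0.01 before adjustment in edgeR's quasi-likelihood test. With a limit of 0.05 on the Benjamini-Hochberg adjusted p instead, edgeR called no member in any comparison of all libraries under the deposited labels, so the calls below rest on unadjusted p. At that limit 0.0592% of genes were called in the I/R hearts against sham and 0.0137% in MIRI against sham. The share was 0% for GXNI, against either sham or MIRI.

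In the 6 I/R hearts against sham, 5 of the 7 members that passed the low-count filter rose: Gdf15, Fstl1, Fstl3, Ereg and Hbegf. In this comparison 5.52% of the 15207 genes tested were called higher and 8.38% in either direction. Fgf23 and Metrnl were tested and not called, and Fgf21, Mstn and Areg did not pass the filter. Ereg and Fgf23, with 7 and 2 counts over the sham group, passed it only through I/R hearts where they were high. This holds for each fit with sham that they entered, so their place among the members tested is no separate support. The same 5 members were called without MIRI 2 and GXNI 3, where 6 members were tested and 6.6% of genes were called higher. Leaving out any 1 sham library reduced the members called to 2, Fstl1 and Fstl3, with 1.63% to 2.19% of genes called higher. Leaving out MIRI 1 or MIRI 3 reduced them to 3, which were Fstl1, Fstl3 and Hbegf, with 3.44% and 3.54% of genes. Without GXNI 3 alone 4 were called and Gdf15 was not, with 3.77% of genes. In bulk tissue, fewer or more cells of a type and less or more RNA per cell cannot be told apart.

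**Figure D1:**
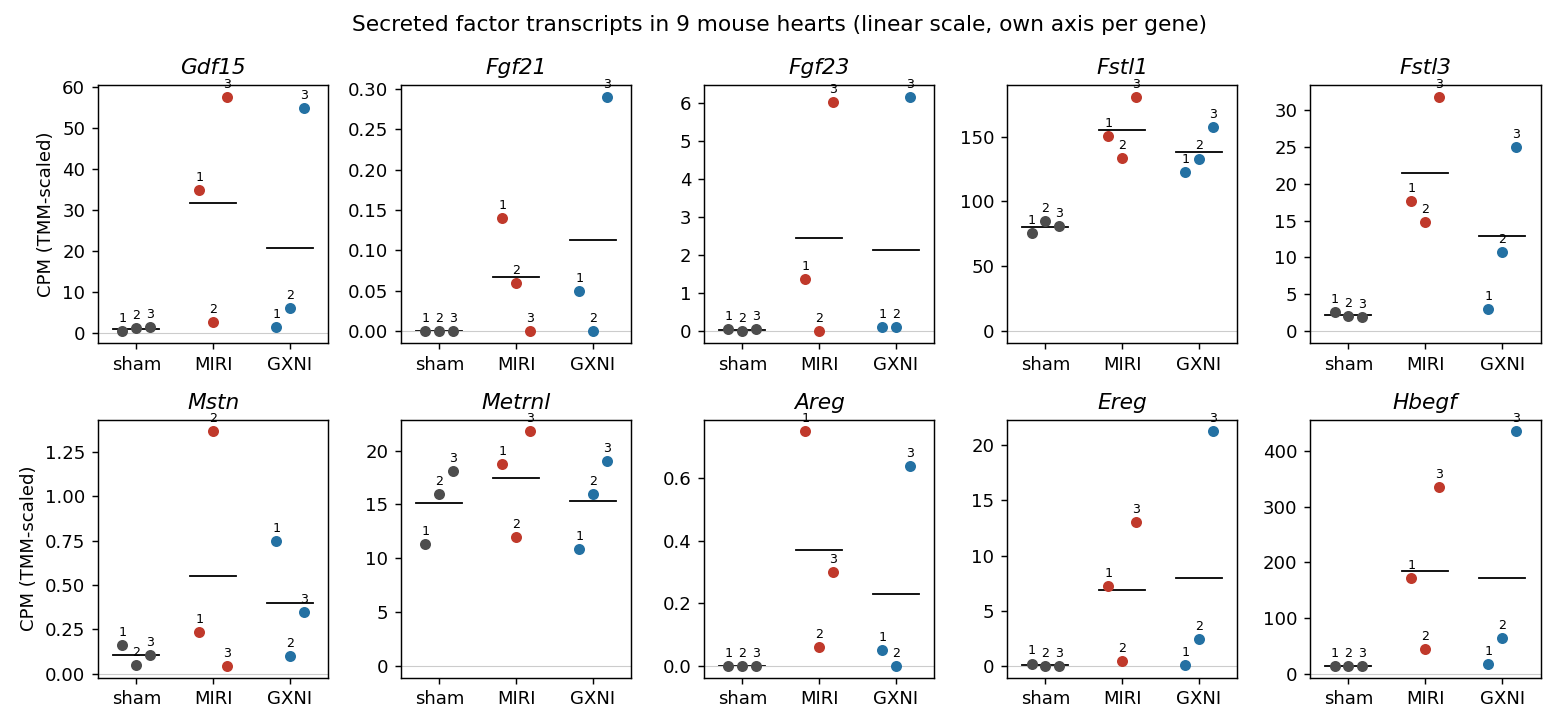
CPM of the 10 members (vertical axis, linear, one axis per gene) in the sham, MIRI and GXNI hearts. Each point is 1 heart with its replicate number and the line is the group mean. Gdf15, Ereg and Hbegf were highest in GXNI 3 and MIRI 3 and lowest among the I/R hearts in GXNI 1.

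Gdf15, a TGF-β family hormone that signals through the brainstem receptor GFRAL, was low in sham. Its level was 0.376, 1.14 and 1.39 CPM in sham 1 to 3, 35.0, 2.73 and 57.8 CPM in MIRI 1 to 3 and 1.40, 6.16 and 54.9 CPM in GXNI 1 to 3. All 6 I/R hearts were above every sham heart, but GXNI 1 was above the highest sham heart by only 2 counts (28 against 26) and the highest I/R heart had 41.3 times the CPM of the lowest. Gdf15 rose 27.0-fold in the I/R hearts (log2 fold change 4.76, SE 1.39, edgeR, Benjamini-Hochberg adjusted p = 0.0914), and 32.9-fold in MIRI alone (5.04, SE 1.10, adjusted p = 0.0767). Without MIRI 3 the value in MIRI alone was 19.5-fold, and without MIRI 2 it was 47.7-fold. Gfral had 0 counts in all 9 libraries. Its co-receptor gene Ret was at 3.97 to 8.84 CPM and was not called.

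Hbegf, heparin-binding EGF-like growth factor, was the EGF receptor ligand at the highest level in all 9 hearts. Sham 1 to 3 were tightly grouped at 13.7, 14.0 and 14.3 CPM. MIRI 1 to 3 were at 171, 44.2 and 337 CPM and GXNI 1 to 3 at 17.5, 64.0 and 436 CPM. Every I/R heart was above sham, by 0.32 log2 units in GXNI 1 and by 4.96 in GXNI 3. Hbegf rose 12.8-fold in the I/R hearts (log2 fold change 3.67, SE 1.02, edgeR, Benjamini-Hochberg adjusted p = 0.0875) and 10.6-fold without MIRI 2 and GXNI 3 (3.40, SE 0.89, adjusted p = 0.0794). Among the 7 EGF receptor ligands Hbegf, Ereg, Areg, Egf, Tgfa, Btc and Epgn, in CPM per kb of exon, Hbegf took 66.9% to 74.2% of the summed level in sham. In the I/R hearts its share was 72.7% in GXNI 1 and 85.2% to 93.8% in the other 5. The summed level was 3.89 to 4.42 CPM per kb in sham, 4.97 in GXNI 1 and 10.7 to 97.3 in the other I/R hearts. The share of Egf, the founding ligand of the family, was 14.3% to 18.6% in sham, 15.2% in GXNI 1 and 0.233% to 6.96% in the other I/R hearts, while the level of Egf itself was 6.29 to 9.27 CPM in sham and 2.55 to 8.54 CPM in I/R. Egf was not called in MIRI against sham (log2 fold change -0.58, SE 0.39, edgeR adjusted p = 0.352) under the deposited labels. With the labels of MIRI 2 and GXNI 3 exchanged it was called lower in MIRI.

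**Figure D2:**
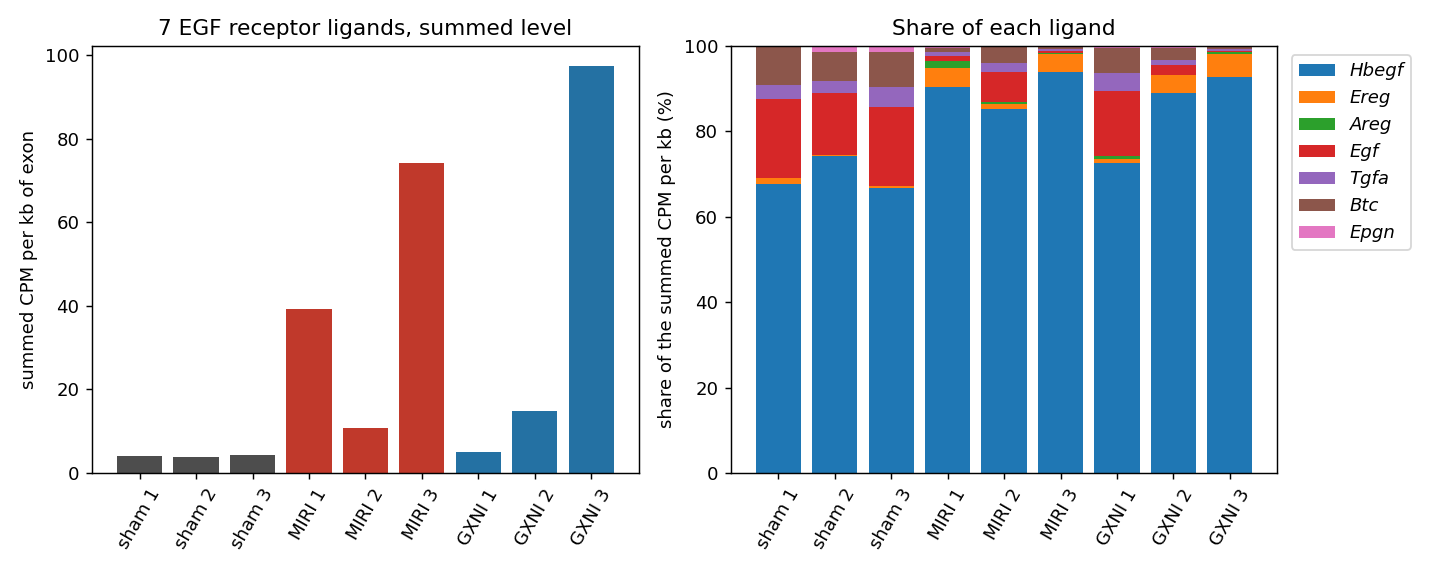
Left, summed level of 7 EGF receptor ligands (CPM per kb of exon) in each heart. Right, the share of each ligand in that sum (%). Hbegf was the tallest part in every heart and was 66.9% to 74.2% in sham.

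Ereg (epiregulin), a ligand of EGFR and ErbB4 induced in wounded and inflamed tissue, had 5, 1 and 1 counts in sham 1 to 3. It had 154, 9 and 304 counts in MIRI 1 to 3 and 3, 51 and 365 counts in GXNI 1 to 3. All hearts but GXNI 1 were above sham, and GXNI 1 lay inside the sham range. Ereg rose in the I/R hearts by 5.86 log2 units (SE 1.72, edgeR, Benjamini-Hochberg adjusted p = 0.0914), and by 5.49 without MIRI 2 and GXNI 3 (SE 1.44, adjusted p = 0.0794). Without GXNI 3 alone it was 5.21, and without sham 1 it was 7.01 and not called. The ratio of summed counts, scaled to depth, was 63.8 (95% interval 30.9 to 159, counting error only). Exons of Ereg overlap the antisense gene Gm19610, and the strand setting of the counting is not given in the sources used here, so reads of the pair cannot be told apart.

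Areg (amphiregulin), its neighbour and also an EGFR ligand, had no count in any sham heart. It had 16, 1 and 7 counts in MIRI 1 to 3 and 1, 0 and 11 counts in GXNI 1 to 3. The hearts MIRI 1, MIRI 3 and GXNI 3 held 34 of its 36 counts. Against a floor of 3 counts over the sham group the I/R hearts were 6.05-fold higher. This value allows for counting error in sham and not for that of the I/R counts. Areg did not pass the low-count filter.

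None of the 4 ErbB genes was called in any comparison under the deposited labels, by edgeR or DESeq2. They include Egfr and Erbb4, the genes of the receptors named above for these ligands. Egfr was at 6.73 to 12.9 CPM in sham and 9.56 to 15.2 CPM in I/R. Erbb4 was at 10.3 to 12.1 CPM in sham and 3.17 to 15.1 CPM in I/R. With the labels of MIRI 2 and GXNI 3 exchanged, Erbb4 was called lower in MIRI than in sham and higher in GXNI than in MIRI. Erbb3, at 13.0 to 20.6 CPM in sham and 9.87 to 19.0 CPM in I/R, had a log2 fold change of -0.40 (SE 0.22, edgeR adjusted p = 0.244) and Erbb2 of 0.41 (SE 0.13, adjusted p = 0.103). Of 8 genes for the proteases that shed the ligands and for feedback on the receptor, 3 rose in the I/R hearts. They were Adam12, a metalloprotease that cleaves Hbegf (5.36-fold), Errfi1, an inhibitor of EGFR (3.02-fold), and Rhbdf2, a partner of the protease ADAM17 (1.94-fold). Without MIRI 2 and GXNI 3 Adam9, a related metalloprotease, was called as well. Of 7 other EGF-family ligands 6 were tested and 1 fell, Nrg2 (neuregulin 2), to 0.305 of sham. With the labels exchanged, Egf and Nrg2 were called lower and Nrg1 and Tgfa higher in MIRI than in sham. Tgfa was then lower in GXNI than in MIRI.

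Fstl3, the activin-binding follistatin-like protein, varied less among the I/R hearts than Gdf15 or Hbegf, the highest being 10.6 times the lowest against 41.3 and 25.0 times. It was at 2.63, 2.08 and 1.97 CPM in sham 1 to 3, at 17.7, 14.8 and 31.8 CPM in MIRI 1 to 3 and at 2.996, 10.7 and 25.0 CPM in GXNI 1 to 3. All I/R hearts were above sham, GXNI 1 by the smallest margin. Fstl3 rose 7.69-fold in the I/R hearts (log2 fold change 2.94, SE 0.65, edgeR, Benjamini-Hochberg adjusted p = 0.0852). Its exons overlap those of Prss57 on the opposite strand, and reads of the pair cannot be told apart without the strand setting.

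Fstl1, a secreted glycoprotein made by fibroblasts and epicardial cells, had the smallest change among the called members. It was at 75.4, 84.8 and 80.9 CPM in sham 1 to 3, 150.3, 134 and 181 CPM in MIRI 1 to 3 and 122.7, 133 and 158 CPM in GXNI 1 to 3. The groups did not overlap, and the lowest I/R heart was GXNI 1. Fstl1 rose 1.82-fold in the I/R hearts (log2 fold change 0.86, SE 0.14, edgeR, Benjamini-Hochberg adjusted p = 0.0546). Dip2a, a gene for a proposed Fstl1 receptor, was not called (log2 fold change 0.14, SE 0.12, adjusted p = 0.405).

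Fstl3 binds the activins, dimers of inhibin β chains, and Mstn, a muscle growth inhibitor. Of 9 genes for activin and myostatin ligands and antagonists, 8 were tested and 2 rose. Inhba rose 22.9-fold (edgeR, Benjamini-Hochberg adjusted p = 0.0875) and Inhbb 23.5-fold (adjusted p = 0.0905) in the I/R hearts. Inhbb was at 2.28 to 4.67 CPM in sham and at 6.59 to 192 CPM in I/R. The 2 that fell were Fstl4, a follistatin-like gene (0.539 of sham), and Bambi, a pseudoreceptor that blocks TGF-β family signals (0.556 of sham). None of the 8 receptor and Smad genes of the pathway was called by edgeR under the deposited labels. DESeq2 called Acvr2b, an activin receptor, lower in the I/R hearts, and with the labels exchanged edgeR called Smad2, Smad7 and Tgfbr1 higher in MIRI than in sham.

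Mstn itself had 3, 1 and 2 counts in sham 1 to 3, 5, 23 and 1 counts in MIRI 1 to 3 and 15, 2 and 6 counts in GXNI 1 to 3. The groups overlapped, and MIRI 2 and GXNI 1 held 38 of the 52 counts in I/R. The ratio of I/R to sham was 4.37 (95% interval 1.88 to 12.5, counting error only). MIRI 2 also had the highest counts of the atrial genes Myl7 (30) and Sln (23), and its adipocyte markers summed to 6.29 CPM against 0 to 1.33 CPM in the other 8 hearts. The 4 atrial markers together, Nppa included, summed to 171 CPM in MIRI 2, below MIRI 1 (259), MIRI 3 (667) and GXNI 3 (729). In GXNI 1, the other heart with more Mstn counts, atrial markers summed to 55.9 CPM and adipocyte markers to 0.350 CPM. A link of these markers to Mstn was not tested. The 6 skeletal muscle markers summed to at most 0.749 CPM in any heart and Myh4 was at 0 in all.

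Fgf23, the phosphate hormone, had 1, 0 and 1 counts in sham, 29, 0 and 140 in MIRI 1 to 3 and 2, 2 and 106 in GXNI 1 to 3. The hearts fell into those with 29 counts or more (MIRI 1, MIRI 3 and GXNI 3) and those with 2 or fewer. Its log2 fold change in the I/R hearts was 5.80 (SE 2.15, edgeR, Benjamini-Hochberg adjusted p = 0.122), which did not pass the threshold. The ratio of summed counts was 70.4 (95% interval 19.3 to 584, counting error only). Fgf21, a hormone of the integrated stress response in liver, had no count in sham, 3, 1 and 0 counts in MIRI 1 to 3 and 1, 0 and 5 counts in GXNI 1 to 3. Against a floor of 3 counts over the sham group the I/R hearts were 1.68-fold higher, and the groups overlapped. This value allows for counting error in sham and not for that of the I/R counts.

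Of 6 FGF receptor and co-receptor genes, only Fgfr1 and Fgfr3 passed the filter and neither was called. Kl, the co-receptor of Fgf23, was at 0 in all I/R hearts and at most 0.107 CPM in sham, and Klb, that of Fgf21, was at most 0.14 CPM in any heart. Of 9 FGF target and feedback genes 2 rose in the I/R hearts, Egr1 (7.97-fold) and Etv4 (4.72-fold), both transcription factors that many other growth factors also induce. Without MIRI 2 and GXNI 3 Dusp6 and Spry4, feedback inhibitors of the pathway, were called as well. Of 9 other cardiac FGF genes 7 were tested and Fgf7 fell to 0.457 of sham, while without MIRI 2 and GXNI 3 Fgf9 was called lower and Fgf7 was not.

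Metrnl, a cytokine of muscle, fat and activated macrophages, was not called in any comparison under the deposited labels. It was at 11.3, 16.0 and 18.1 CPM in sham 1 to 3, 18.8, 11.9 and 21.8 CPM in MIRI 1 to 3 and 10.8, 16.0 and 19.0 CPM in GXNI 1 to 3. The groups overlapped. Its log2 fold change in the I/R hearts was 0.12 (SE 0.25, edgeR, Benjamini-Hochberg adjusted p = 0.765). Kit, the gene of a receptor for Metrnl, was at 1.86 to 2.92 CPM in sham and 1.84 to 45.5 CPM in I/R. Its log2 fold change of 3.05 (SE 1.13, adjusted p = 0.122) did not pass the threshold.

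**Figure D3:**
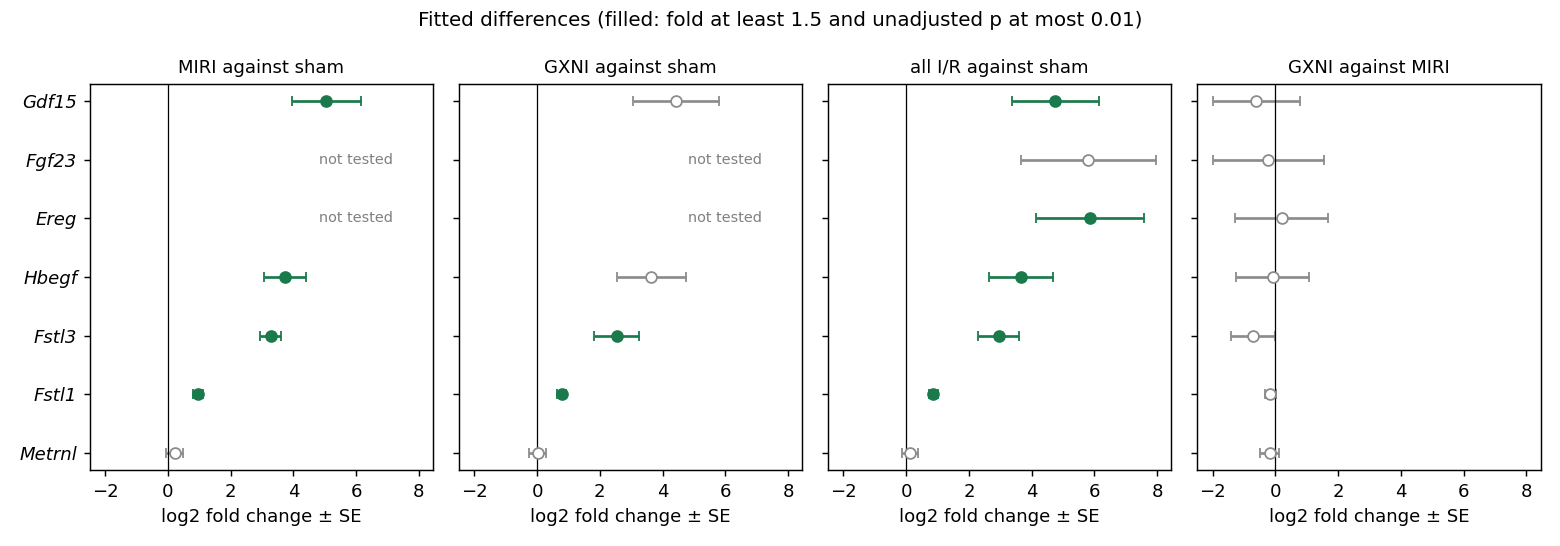
Log2 fold change with its standard error (horizontal axis) of the 7 members that passed the filter in the 9-library fit, in 4 comparisons. Filled points were called, and members marked as not tested did not pass the filter of that fit. Gdf15, Hbegf, Fstl3 and Fstl1 were called in MIRI against sham, and no member was called in GXNI against MIRI.

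Within the pairwise comparison of MIRI with sham, which asks what ischemia and reperfusion changed without the drug, 4 of 5 members tested rose. Fstl3 rose 9.66-fold (log2 fold change 3.27, SE 0.34, edgeR, Benjamini-Hochberg adjusted p = 0.0568), Hbegf 13.2-fold (3.73, SE 0.68, adjusted p = 0.0662) and Fstl1 1.94-fold (0.95, SE 0.15, adjusted p = 0.0607), beside Gdf15 above. In this comparison 6.15% of the 14644 genes tested were called higher and 8.97% in either direction. The median log2 fold change was 3.27 over the 5 members tested and -0.0015 over all genes. Metrnl was not called (0.22, SE 0.27, adjusted p = 0.619). Without MIRI 2, Ereg and Fgf23 entered the fit and 6 of 7 members were called, among 16.9% of all genes called higher. Both entered through MIRI 1 and MIRI 3, where they were high. In that fit the log2 fold change was 5.58 for Gdf15, 4.19 for Hbegf, 3.48 for Fstl3 and 1.05 for Fstl1. Without MIRI 3 Hbegf was 7.75-fold higher. Gdf15 was not called without sham 1 or without sham 2, and the members called were then Fstl1, Fstl3 and Hbegf, with Ereg added without sham 1. Of all genes 2.39% without sham 1 and 2.25% without sham 2 were called higher. With the labels of MIRI 2 and GXNI 3 exchanged the same 6 members were called as without MIRI 2, among 19.2% of genes called higher. Of the 10 members 6 did not overlap between MIRI and sham, all higher: Gdf15, Fstl1, Fstl3, Areg, Ereg and Hbegf. Areg and Ereg did not pass the filter of this fit, and Areg was separated by 1 count in MIRI 2 against 0 in sham. Of the genes that passed, 17.4% lay higher without overlap.

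GXNI against sham uses the same 3 sham hearts. Fstl1 (1.72-fold, log2 fold change 0.79, SE 0.14, edgeR, Benjamini-Hochberg adjusted p = 0.219) and Fstl3 (5.81-fold, 2.54, SE 0.71, adjusted p = 0.219) rose, 2 of 5 members tested. In this comparison 2.67% of the 14695 genes tested were called higher and 4.21% in either direction. Gdf15 (4.43, SE 1.37, adjusted p = 0.223) and Hbegf (3.64, SE 1.10, adjusted p = 0.223) were not called, with larger standard errors than in MIRI. Without GXNI 3 only Fstl1 was called, among 2.11% of genes called higher, and the log2 fold change was 1.96 for Gdf15, 1.62 for Fstl3 and 1.55 for Hbegf. Without GXNI 2, or without any 1 of the sham hearts, Fstl1 alone was called, among 1.58% and 0.551% to 0.781% of genes. Without GXNI 1 the members called were Gdf15, Fstl1, Fstl3, Ereg and Hbegf, among 10.7% of genes. With the labels of MIRI 2 and GXNI 3 exchanged Fstl1, Fstl3 and Hbegf were called, among 2.16% of genes called higher. Of the 10 members 5 lay above sham without overlap, Gdf15, Fgf23, Fstl1, Fstl3 and Hbegf. Fgf23 had 2, 2 and 106 counts in GXNI against 1, 0 and 1 in sham, so its separation is within counting error. It did not pass the filter of this fit, and 13.8% of the genes that did lay above sham without overlap.

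GXNI against MIRI asks what the drug changed in injured hearts. Under the deposited labels 0 of 7 members tested was called by edgeR, 0 had an unadjusted p under 0.05, and DESeq2 called 0 of 10 with 0 under 0.05. Here 0.0203% of the 14762 genes tested were called by edgeR, 3 genes, and 0.0391% by DESeq2, and 47 had an unadjusted p under 0.05 in edgeR. The log2 fold change was -0.60 for Gdf15 (SE 1.39), -0.73 for Fstl3 (SE 0.70), -0.08 for Hbegf (SE 1.17), -0.22 for Fgf23 (SE 1.77) and 0.20 for Ereg (SE 1.49). Fstl1 was at -0.16 (SE 0.18) and Metrnl at -0.19 (SE 0.30). Both groups held hearts at both ends of the range, and the groups overlapped for all 10 members.

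Without MIRI 2 and GXNI 3, which leaves 2 hearts a group, 3 of 7 members were lower in GXNI. Gdf15 fell by 3.60 on the log2 scale (SE 0.65, edgeR, Benjamini-Hochberg adjusted p = 0.188), Fgf23 by 5.12 (SE 0.97, adjusted p = 0.188) and Hbegf by 2.63 (SE 0.65, adjusted p = 0.189). In that fit 3.47% of the 14984 genes tested were called lower. Ereg had a log2 fold change of -2.91 (SE 0.95, adjusted p = 0.217) and Fstl3 of -1.84 (SE 0.60, adjusted p = 0.217), neither called. With the labels of MIRI 2 and GXNI 3 exchanged, 5 members were lower in GXNI at an adjusted p of 0.0143 to 0.041, which were Gdf15 (log2 fold change -3.82), Fgf23 (-5.88), Ereg (-3.65), Hbegf (-2.90) and Metrnl (-0.61). In that fit 10.7% of the genes tested were called lower. The counts of these libraries do not show which labels are right.

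**Figure D4:**
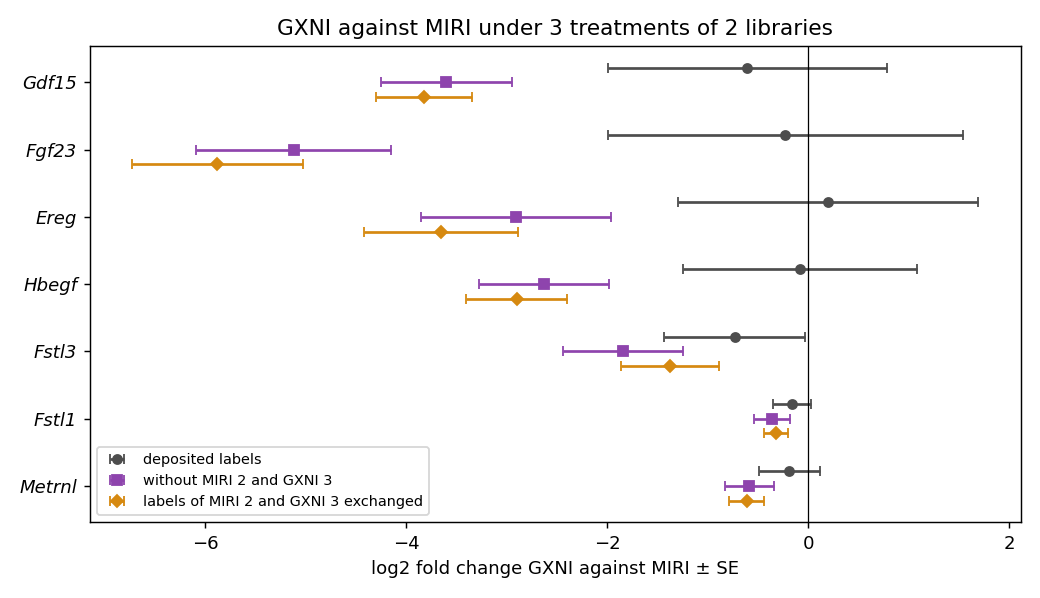
Log2 fold change of GXNI against MIRI with its standard error (horizontal axis) for 7 members, under the deposited labels, without the libraries MIRI 2 and GXNI 3, and with those labels exchanged. Gdf15 was at -0.60, -3.60 and -3.82, and Fstl1 lay within 0.36 of zero in all 3.

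Across single I/R hearts, log2 CPM over the sham mean ranged from 0.71 (GXNI 1) to 6.05 (MIRI 3) for Gdf15, from 0.54 (GXNI 1) to 7.46 (GXNI 3) for Ereg and from 0.44 (GXNI 1) to 3.83 (MIRI 3) for Fstl3. Fstl1 ranged only from 0.61 to 1.17. The order of the members differed in MIRI 2 and in GXNI 1. MIRI 2 had Fstl3 at 2.73, above Ereg at 2.22, Gdf15 and Hbegf at 1.66 each and Fgf23 at -1.09. GXNI 1 had Fgf23, with 2 counts, at 1.21, above Gdf15 at 0.71, Ereg at 0.54 and Fstl3 at 0.44. In MIRI 1, MIRI 3, GXNI 2 and GXNI 3 Ereg was above Gdf15, and Gdf15 was above Hbegf and Fstl3. Fgf23 had no fixed place among them, at 6.80 in MIRI 3, above Ereg at 6.76, and at 1.20 in GXNI 2.

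**Figure D5:**
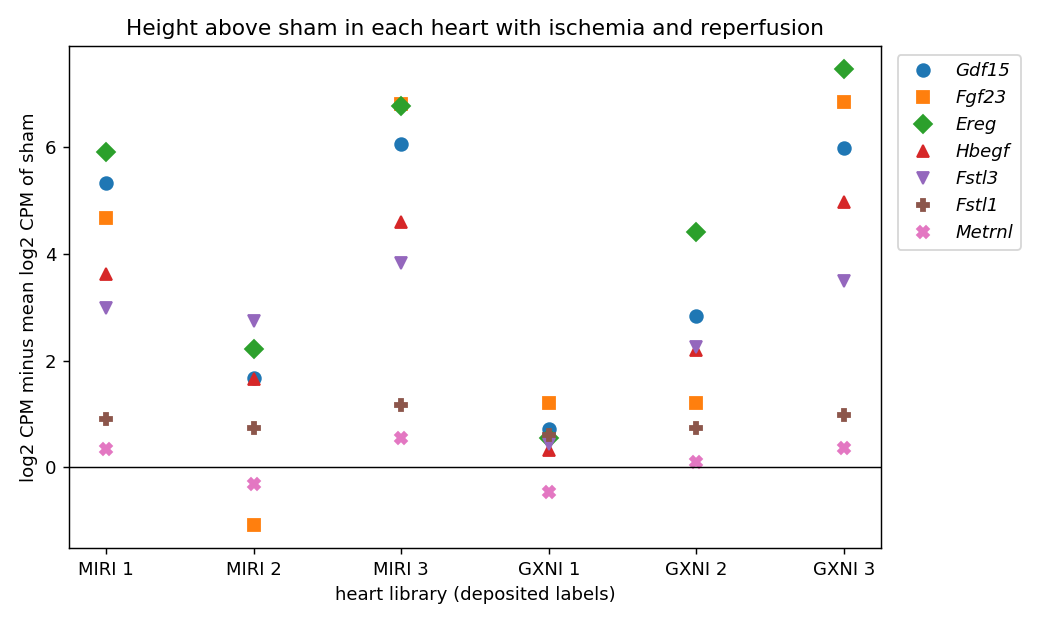
Log2 CPM of 7 members minus the mean log2 CPM of the 3 sham hearts (vertical axis, prior count of 0.5) in each I/R heart. GXNI 1 lay between -0.45 and 1.21 for all 7, and MIRI 3 and GXNI 3 held the highest values of Gdf15, Ereg and Hbegf.

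Per kb of exon, the order of the members by group mean differed between sham and the MIRI and GXNI groups, though not in every I/R heart. In sham it was Fstl1 (16.4 CPM per kb), Metrnl (9.55), Hbegf (2.89), Fstl3 (0.911) and Gdf15 (0.522), with Mstn, Ereg and Fgf23 at 0.0391 or less and Fgf21 and Areg at 0. In MIRI it was Hbegf (38.1), Fstl1 (31.5), Gdf15 (17.2), Metrnl (11.03), Fstl3 (8.77), Ereg (1.68) and Fgf23 (1.35). The MIRI range of Hbegf enclosed that of Fstl1, and the range of Gdf15 enclosed that of Metrnl, so these neighbours did not differ beyond their spread. Without MIRI 2 the order of these 7 was the same. MIRI 2 alone had Fstl1 (27.2) above Hbegf (9.15), Metrnl (7.52), Fstl3 (6.07) and Gdf15 (1.47). In GXNI the order was that of MIRI, with Hbegf at 35.7 and Fstl1 at 28.0 CPM per kb, but it rested on GXNI 3. Without that heart it was Fstl1 (26.02), Metrnl (8.46), Hbegf (8.43), Fstl3 (2.80) and Gdf15 (2.04), the order of these members in sham.

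The genes nearest to a member in log2 CPM over the 9 hearts, among 15207, were found by the mean absolute difference of centred values. For Gdf15 they were Plaur, the urokinase receptor (0.42 log2 units), Lif, a cytokine of the IL-6 family (0.43), and Ch25h, cholesterol 25-hydroxylase (0.46). For Hbegf they included Gm13054 (0.34) and Egr2, an immediate early transcription factor (0.36). Ereg was nearest to Ptgs2, cyclooxygenase 2 (0.44), Sh2d5 (0.47) and Thbs1, thrombospondin 1 (0.54). Fstl3 was nearest to Fhl1 (0.21), Tent5b (0.24) and Xirp2 (0.24), of which Fhl1 and Xirp2 encode proteins of striated muscle sarcomeres and intercalated discs. Fgf23 was nearest to Csf3, granulocyte colony-stimulating factor (0.49), Rhov (0.55) and Hspa1b, a heat shock protein (0.68). Fstl1 was nearest to Mapre1 (0.09), Ywhaz (0.09) and Vat1 (0.10), and Metrnl to Fmnl3 (0.10), Rpl28-ps1 (0.10) and Exosc3 (0.11). Among the members, Fstl3 and Hbegf were closest after Fstl1 and Metrnl, at 0.52, followed by Gdf15 and Hbegf at 0.58. The measure is small for any pair of genes that vary little, so it does not show that one gene followed another. Fstl1 and Metrnl were closest (0.34), though Fstl1 was above sham in all I/R hearts and Metrnl overlapped sham. These are descriptions over libraries that share group and depth.

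Other stress genes moved in the same comparison. Of 12 other cardiokines 8 rose in the I/R hearts, where 5.52% of all genes did, with the largest fitted changes in Il11, Il6 (48.0-fold), Lif (26.4-fold) and Nppb, the gene of B-type natriuretic peptide (20.4-fold). Il11 had 3 counts in sham and 493 in I/R, a ratio of 82.9 scaled to depth (95% interval 28.2 to 403, counting error only). Without MIRI 2 and GXNI 3 the cardiokines called were 7 of 12, and Nppb was not among them. Of 10 genes of the integrated stress response, which includes transcription factors that act on Gdf15 and Fgf21, 3 rose. They were Atf3, a stress-induced transcription factor (17.8-fold), Psat1 of serine synthesis (3.72-fold) and Ppp1r15a, a phosphatase subunit that ends the response (3.43-fold). Atf4, its central factor, was at 52.2 to 60.2 CPM in sham and at 48.6 to 246 CPM in I/R and was not called. Of the 18 genes outside the members given above as having risen or fallen in the I/R hearts, 16 were called without MIRI 2 and GXNI 3 (all but Fgf7 and Nppb). In the 9 fits that each left out 1 library only Atf3 and Etv4 were called every time, and the other 16 were not called without at least 1 of the sham hearts. The median log2 fold change was 1.51 over the 10 stress response genes, 3.23 over the 12 cardiokines and 0.01 over all genes.

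Neutrophil marker RNA and several members were highest in the same hearts. The 6 neutrophil markers, all detected, summed to 51.9, 28.4 and 53.1 CPM in sham 1 to 3, 641, 25.7 and 544 CPM in MIRI 1 to 3 and 46.8, 197 and 573 CPM in GXNI 1 to 3. The hearts with the most neutrophil RNA, MIRI 1, MIRI 3 and GXNI 3, were, among the I/R hearts, those with the highest CPM of all members but Fgf21 and Mstn. Atf4, Ccn2 and Nppb were also highest in these 3 hearts, so this order is not particular to the members or to neutrophil genes. The share of all genes with this order was not counted. In MIRI 2, where the sum was below every sham heart, Fstl3 was still at 14.8 CPM, Hbegf at 44.2 CPM and Gdf15 at 2.73 CPM, each above every sham heart. The 6 cardiomyocyte markers were all detected and summed to 31292 to 34169 CPM in sham, 21768 to 36383 CPM in MIRI and 22362 to 28942 CPM in GXNI. Macrophage markers summed to 465 to 583 CPM in sham and 337 to 609 CPM in I/R, fibroblast markers to 843 to 925 and 472 to 1114 CPM, and endothelial markers to 552 to 777 and 590 to 998 CPM, with all markers of the 3 lists detected. Mesothelial markers were at 72.8 CPM in GXNI 1 and at 8.94 to 23.9 CPM elsewhere. Atrial markers summed to 40.3 to 84.0 CPM in sham and 55.9 to 729 CPM in I/R, of which most was Nppa, which injured ventricle also expresses. The part of these cell types in the results was not tested.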

How the data were processed

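Total RNA of heart tissue from 3 sham, 3 MIRI and 3 GXNI mice was sequenced. Before deposit, the authors discarded reads with adapters, undetermined bases or poor quality, mapped the remainder with HISAT2 (mm10 per the labels) and summed them over genes with featureCounts. The deposited files hold raw counts, not normalized, and 0 columns of other samples were used. The versions, annotation release and strand setting are not given in the sources used here. Identifiers were paired with symbols of GENCODE M21 (GRCm38), 54409 of 54532 with a match.

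Each comparison was fitted on its own libraries with edgeR 4.0.16 in R 4.3.3 (TMM, the default low-count filter, quasi-likelihood F test, no covariate). The standard error is the size of the log2 fold change divided by the square root of F. CPM uses TMM factors over 9 libraries, and log2 CPM a prior count of 0.5. A group with 0 counts was set to 3 counts over the group, which allows for counting error in that group only. Intervals of count ratios are exact binomial and cover counting error only. The replicates are different mice, and p-values measure the spread between them. No pair of libraries of a group had counts within sampling noise. The fits were tested on simulated data that had the same dispersion in every gene and changes only in well-counted genes. That test did not cover the wide spread between the I/R hearts or the members with few counts.

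The members, gene lists and tests were chosen with earlier results of these data known. All 10 members are named, and from each gene list up to 4 called genes with the largest change, or the 2 with the highest CPM where none was called. Gfral, Kl, Klb, Atf4, Egfr, genes called only under an alternative and single marker genes named outside this rule were chosen after their values were seen. Alternatives were DESeq2 1.42.0, RLE, no filter, all 9 libraries in 1 fit, a replicate block, an adjusted p of at most 0.05, mitochondrial genes left out, and libraries left out. The exchange of the labels of MIRI 2 and GXNI 3 was tried because the fold changes in the study's supplementary tables appeared to fit that grouping. The comparison behind this was made aside from these results and is not given here. Groups otherwise follow the deposited labels. A gene among those nearest to Hbegf is not reported here.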

Additional observations from a re-analysis of the deposited data

How the results depend on the processing

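The members called in MIRI against sham were 7 under DESeq2, 7 without the low-count filter and 0 at an adjusted p of at most 0.05, against 4, and 3 to 6 with 1 library left out. The share of all genes called higher was, in that order, 5.34%, 5.75% and 0.0137%, against 6.15%, and 2.25% to 16.9%. In GXNI against sham the members called were 5, 6 and 0 under the same settings, against 2, and 1 to 5 with 1 library left out. The share of genes called higher was 3.55%, 3.57% and 0%, against 2.67%, and 0.551% to 10.7%. In all I/R hearts against sham the members called were 7, 6 and 0, against 5, and 2 to 5 with 1 library left out. The share of genes called higher was 5.18%, 4.18% and 0.0263%, against 5.52%, and 1.63% to 9.67%. In GXNI against MIRI the members called were 5 with the labels of MIRI 2 and GXNI 3 exchanged and 3 without both libraries, against 0. The share of genes called lower was 10.7% and 3.47%, against 0.0203%.

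Log2 fold changes of GXNI against MIRI changed sign with 1 library left out, ranging from -3.06 to 0.14 for Gdf15, -4.55 to 1.58 for Fgf23, -2.17 to 0.68 for Hbegf, -2.37 to 1.02 for Ereg and -0.40 to 0.0061 for Metrnl. Ereg was at 0.20 and became -3.65 with the labels exchanged, -2.91 without both libraries and -0.21 with the replicate block. Metrnl in GXNI against sham became -0.22 with the labels exchanged and ranged from -0.17 to 0.22 with 1 library left out, and in all I/R hearts it ranged from -0.058 to 0.27. The cause was not tested. Of the other values of single members, 330 settings kept direction and side of the threshold, 18 passed it and 33 no longer did.

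The replicate numbers did not pair the hearts: deviations of same-numbered hearts correlated at -0.44, 0.13 and 0.70 between GXNI and MIRI, and at -0.085 to 0.12 with sham. With the replicate block the members called were 4 in MIRI against sham, 0 in GXNI against MIRI, 2 in GXNI against sham (Gdf15 and Fstl1) and 6 in all I/R hearts against sham, Fgf23 being added. In those fits 4.77%, 2.33% and 5.92% of genes were called higher in MIRI, GXNI and all I/R hearts against sham. For GXNI against MIRI 0.0203% were called in either direction. Counts limit Fgf21, Mstn and Areg, which never passed the filter on 6 or 9 libraries.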
